A study of Rattus norvegicus with 11 samples.

Results

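The genes described here were grouped as feedback inhibitors of early stress signalling, which is a name for the group and not a function measured here. They were chosen by symbol: Dusp1, Dusp5, Dusp6, Zfp36, Btg2, Ier3, Nfkbia and Gadd45a. The probe annotation paired 7 of these 8 genes with 16 probe sets, among 8740 probe sets tested. It paired none with Btg2, which was not analysed here. RNA was measured on 11 Affymetrix rat arrays: 4 of freshly isolated type I (TI) cells on day 0, 3 of type II (TII) cells on day 7 of culture, and 4 of freshly isolated TII cells on day 0. TI cells are the flat cells that cover most of the alveolar surface, and TII cells are the cuboidal cells that make surfactant. Sources used here give the species as rat and do not give strain, age, isolation steps or culture conditions. Nothing in them ties an array to an animal, and p-values therefore reflect only how far these arrays spread, which may be technical.

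When a cell meets a growth factor, a cytokine or mechanical stress, kinases of the MAP kinase family and the transcription factor NF-kappaB switch on a wave of early genes within minutes. Part of that wave encodes proteins that end the signal, so their transcripts rise and decay quickly. Dual-specificity phosphatases remove the activating phosphates from MAP kinases, IkappaB-alpha holds NF-kappaB in the cytoplasm, and tristetraprolin sends AU-rich cytokine transcripts to decay. In lung epithelium these brakes limit inflammatory gene expression after injury.

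Signal is given as the log2 value that the authors deposited for a probe set. Each gene was read on the probe set that was brightest on average, and a call means a limma p-value under 0.05 after Benjamini-Hochberg adjustment over the 8740 probe sets. Array medians lay between 5.43 and 5.51, and Pearson r across probe sets within a group was at least 0.978. The cell labels were checked against markers. All 5 type I markers (Pdpn, Aqp5, Ager, Cav1 and Akap5) were called higher in fresh TI than in fresh TII cells, and all 5 type II markers (Sftpc, Sftpb, Sftpa1, Sftpd and Nkx2-1) were called lower. In cultured against fresh TII cells, 4 type I markers were called higher with 1 not called, and all 5 type II markers were called lower. Surfactant transcripts stayed bright in fresh TI cells, where the mean log2 signal of the 5 type II markers ran from 8.78 to 10.13, against 11.53 to 11.73 in fresh TII cells.

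The stretches upstream of 4 of the genes are shown because each holds a match to the recognition sequence of a factor of the early response. The sequences are the 250 bases before the annotated start, 5′ to 3′ on the strand of the gene, from RefSeq on build GRCr8. Of the 8 genes, 7 matched an entry there and Ier3 did not. Both strands were searched for the cyclic AMP response element (CRE) TGACGTCA, the AP-1 site TGANTCA, the Egr site GCGNGGGCG, the CArG box bound by serum response factor, and the NF-kappaB site. Capitals mark the matches, and no match overlapped one of another kind.
Dusp1, chr10:17184603-17184852, plus strand: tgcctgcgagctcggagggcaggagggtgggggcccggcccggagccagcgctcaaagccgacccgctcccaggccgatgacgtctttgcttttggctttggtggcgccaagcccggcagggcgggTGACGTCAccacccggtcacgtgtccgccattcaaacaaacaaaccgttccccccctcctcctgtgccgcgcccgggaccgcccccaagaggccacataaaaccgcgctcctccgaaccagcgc
Dusp5, chr1:262543524-262543773, plus strand: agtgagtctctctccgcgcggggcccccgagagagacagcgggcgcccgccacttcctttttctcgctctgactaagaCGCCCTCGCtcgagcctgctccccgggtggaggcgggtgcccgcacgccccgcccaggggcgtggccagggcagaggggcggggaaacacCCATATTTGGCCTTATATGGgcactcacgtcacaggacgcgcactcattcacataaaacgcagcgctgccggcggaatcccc
Zfp36, chr1:92799109-92799358, minus strand: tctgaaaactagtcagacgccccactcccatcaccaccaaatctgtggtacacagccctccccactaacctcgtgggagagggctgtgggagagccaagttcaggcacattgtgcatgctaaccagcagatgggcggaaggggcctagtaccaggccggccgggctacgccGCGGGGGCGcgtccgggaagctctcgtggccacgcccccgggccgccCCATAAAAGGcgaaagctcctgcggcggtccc
Nfkbia, chr6:78597073-78597322, minus strand: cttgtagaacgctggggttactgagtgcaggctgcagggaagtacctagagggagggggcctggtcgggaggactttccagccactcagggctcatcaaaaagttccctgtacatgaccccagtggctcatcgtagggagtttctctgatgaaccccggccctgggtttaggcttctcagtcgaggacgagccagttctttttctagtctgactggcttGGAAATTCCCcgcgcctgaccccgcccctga

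Dusp1 has a CRE that begins 124 bases before its start. Dusp5 has adjoining CArG boxes that begin 82 and 72 bases before its start, and an Egr site at 172 bases. Zfp36 has a CArG box at 32 bases and an Egr site at 79 bases. Nfkbia has an NF-kappaB site at 31 bases. Of all 33469 promoters of the same length, 1.59% held the CRE, 1.5% a CArG box, 4.29% an Egr site and 3.54% an NF-kappaB site. The AP-1 site was in 6.34% of all promoters and in none of the 7 matched here. Btg2 held a CRE and an Egr site, and Dusp6 and Gadd45a held none of the 5 motifs in this window. These are matches of letters, and binding was not measured.

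All 7 measured feedback inhibitors were lower in fresh TI cells than in fresh TII cells, by 1.79-fold (Dusp5) to 4.83-fold (Dusp6). All 7 were also lower in cultured than in fresh TII cells, by 1.51-fold (Ier3) to 7.27-fold (Nfkbia). The genes parted in the direct comparison of fresh TI with cultured TII cells. There Nfkbia, Dusp1 and Zfp36 were higher in fresh TI cells, Dusp6 and Ier3 were lower, and Dusp5 and Gadd45a were not called.

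In fresh TI against fresh TII cells, 7 of 7 genes were called lower, against 21.2% of the 4736 genes measured, and 0 were called higher, against 33.0%. The median of the 7 was -1.06 (log2), against 0.11 over all genes. Called and at least 2-fold lower were 4 of the 7, against 5.00% of all genes. For cultured minus fresh TII, 7 of 7 were called lower, against 14.0% of genes, and 0 higher, against 20.5%. Here the median of the 7 was -0.90, against -0.01 over all genes, and 3 of the 7 were at least 2-fold lower, against 4.05% of genes. In fresh TI against cultured TII cells, 2 of 7 were called lower, against 25.8% of genes, and 3 higher, against 34.2%. For 7 genes, these 2 counts are not far from the shares over all genes. The first 2 of these comparisons share the fresh TII arrays, so they are not independent of each other. The genes were chosen with earlier results of these data known, so the shares are a description and not a test. All 16 probe sets of the 7 genes were called lower in both of the first 2 comparisons. Of all 8740 probe sets, 1787 were called lower for fresh TI and 1249 for cultured TII, each against fresh TII. Probe sets of the same gene are not independent of each other.

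**Figure D1:**
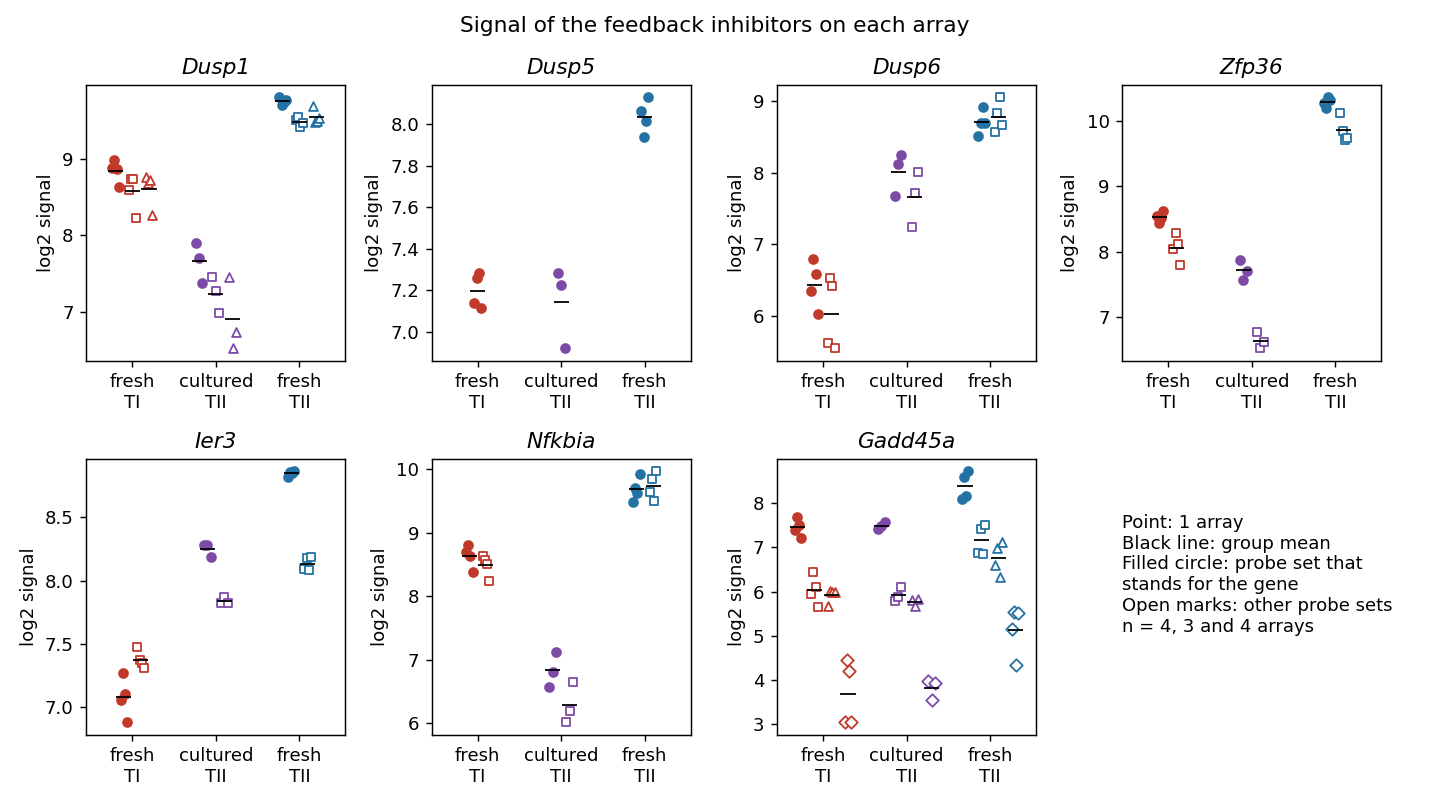
Log2 signal (y axis) of the 7 feedback inhibitors in fresh TI, cultured TII and fresh TII cells (x axis), where each point is 1 array, each black line a group mean and open marks are further probe sets of the same gene. On the probe sets that stand for the genes (filled circles), fresh TII arrays are at the top of every panel, cultured TII arrays are lowest for Dusp1, Zfp36 and Nfkbia, and fresh TI arrays are lowest for Dusp6 and Ier3.

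Among the phosphatases, Dusp1 (Entrez gene 114856) encodes a nuclear enzyme that acts on the stress-activated MAP kinases as well as ERK. Its log2 signal was 8.88, 8.98, 8.87 and 8.63 in fresh TI cells, 7.90, 7.70 and 7.38 in cultured TII cells, and 9.81, 9.71, 9.74 and 9.78 in fresh TII cells. The 3 groups did not overlap: fresh TII arrays were highest, fresh TI arrays stood in the middle and cultured arrays were lowest. The difference was -0.92 ± 0.11 (log2, SE) for fresh TI minus fresh TII, which is 1.89-fold lower (adjusted p = 1.67e-05). For cultured minus fresh TII it was -2.10 ± 0.12, which is 4.28-fold lower (adjusted p = 1.40e-08). Fresh TI stood above cultured TII cells by 1.18 ± 0.12 (adjusted p = 3.62e-06). The other Dusp1 probe sets gave -0.91 and -0.94 for fresh TI and -2.25 and -2.65 for cultured TII cells, each against fresh TII. All 3 carry a suffix for sequence that related transcripts share.

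Dusp5 (171109) encodes a nuclear phosphatase that is selective for ERK, and 1 probe set measured it. The array values were 7.14, 7.26, 7.28 and 7.11 in fresh TI cells, 7.29, 7.22 and 6.92 in cultured TII cells, and 8.07, 7.94, 8.02 and 8.13 in fresh TII cells. Fresh TI and cultured TII arrays overlapped, and both lay wholly below the fresh TII arrays. The difference was -0.84 ± 0.09 for fresh TI minus fresh TII (adjusted p = 6.17e-06) and -0.89 ± 0.09 for cultured minus fresh TII (adjusted p = 6.57e-06). Fresh TI minus cultured TII was 0.05 ± 0.09 (adjusted p = 0.63), with a 95% interval from -0.15 to 0.26, and the sign of this small difference turned without cultured TII replicate 3 (-0.058).

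Dusp6 (116663) encodes a cytoplasmic phosphatase, also selective for ERK, whose transcript is a standard readout of ERK activity. Dusp6 read 6.35, 6.80, 6.58 and 6.03 in fresh TI cells, 7.68, 8.12 and 8.26 in cultured TII cells, and 8.52, 8.70, 8.93 and 8.71 in fresh TII cells. The order was that of Dusp1 with the lower groups exchanged, and again no groups overlapped. Fresh TI cells were 4.83-fold below fresh TII cells, a difference of -2.27 ± 0.16 (adjusted p = 1.93e-07). This was the 56th lowest of 4736 genes in that comparison. Cultured minus fresh TII was smaller, at -0.69 ± 0.18 (adjusted p = 0.0077), and fresh TI minus cultured TII was -1.58 ± 0.18 (adjusted p = 1.15e-05). The other Dusp6 probe set gave -2.76, -1.13 and -1.63 for the same 3 comparisons.

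Dusp4 and Dusp7, further phosphatases of this family on the array, are named here after their values were seen. Dusp4 differed by 0.06 ± 0.07 for fresh TI (adjusted p = 0.48) and by -0.19 ± 0.08 for cultured TII (adjusted p = 0.082), each minus fresh TII. Dusp7 differed by 0.06 ± 0.07 (adjusted p = 0.49) and 0.18 ± 0.08 (adjusted p = 0.086). Neither was called against fresh TII, while Dusp4 was higher in fresh TI than in cultured TII cells by 0.25 ± 0.08 (adjusted p = 0.015).

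Zfp36 (79426) encodes tristetraprolin, which binds AU-rich elements and recruits the enzymes that shorten poly(A) tails. Signal stood at 8.55, 8.44, 8.51 and 8.63 in fresh TI cells, 7.88, 7.57 and 7.70 in cultured TII cells, and 10.28, 10.19, 10.36 and 10.33 in fresh TII cells. The groups were ordered as for Dusp1, with wide gaps between them. Fresh TI cells were 3.38-fold below fresh TII cells (-1.76 ± 0.08, adjusted p = 2.34e-09). Cultured cells were 5.95-fold below fresh TII cells (-2.57 ± 0.08, adjusted p = 1.50e-10). Fresh TI minus cultured TII was 0.82 ± 0.08 (adjusted p = 6.19e-06). The other Zfp36 probe set, designed on a different sequence, gave -1.79 for fresh TI and -3.22 for cultured TII, each minus fresh TII, and 1.42 for fresh TI minus cultured TII.

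Nfkbia (25493) encodes IkappaB-alpha, the inhibitor that is itself switched on by NF-kappaB and so closes the loop. Its log2 signal was 8.70, 8.81, 8.63 and 8.37 in fresh TI cells, 6.56, 6.81 and 7.11 in cultured TII cells, and 9.48, 9.71, 9.63 and 9.93 in fresh TII cells. No groups overlapped, and the cultured arrays lay more than 1 log2 unit below every fresh array. Among the 7 genes, its difference in culture was the greatest, at -2.86 ± 0.14 or 7.27-fold lower (adjusted p = 5.25e-09), the 39th lowest of 4736 genes. Fresh TI cells were 2.09-fold below fresh TII cells (-1.06 ± 0.13, adjusted p = 2.83e-05) and 3.47-fold above cultured TII cells (1.80 ± 0.14, adjusted p = 5.51e-07). A second probe set, designed on the same transcript sequence, gave -1.25 for fresh TI and -3.46 for cultured TII, each minus fresh TII, and 2.21 for fresh TI minus cultured TII.

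Ier3 (294235) is an early-response gene whose product modulates cell survival and ERK and NF-kappaB signalling. Ier3 read 7.06, 7.27, 7.11 and 6.88 in fresh TI cells, 8.28, 8.28 and 8.18 in cultured TII cells, and 8.82, 8.85, 8.84 and 8.86 in fresh TII cells. It followed the order of Dusp6, with fresh TI arrays lowest and no overlap between groups. Fresh TI cells were 3.40-fold below fresh TII cells (-1.76 ± 0.08, adjusted p = 2.31e-09). Cultured TII cells were 1.51-fold below fresh TII cells (-0.59 ± 0.08, adjusted p = 1.00e-04). Fresh TI minus cultured TII was -1.17 ± 0.08 (adjusted p = 2.51e-07). The second Ier3 probe set, on the same transcript sequence, gave the same directions at smaller size, -0.76, -0.29 and -0.46.

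Gadd45a (25112) is a growth arrest gene of the DNA damage and stress response, and 4 probe sets measured it. On the brightest, log2 signal was 7.40, 7.69, 7.50 and 7.21 in fresh TI cells, 7.41, 7.47 and 7.57 in cultured TII cells, and 8.09, 8.58, 8.15 and 8.72 in fresh TII cells. As for Dusp5, fresh TI and cultured TII arrays overlapped and both lay below the fresh TII arrays. Fresh TII arrays themselves spread more than for the other genes, with replicates 2 and 4 above replicates 1 and 3 on all 4 probe sets. The difference was -0.93 ± 0.14 for fresh TI (adjusted p = 1.56e-04) and -0.90 ± 0.15 for cultured TII (adjusted p = 3.95e-04), each minus fresh TII. The other probe sets gave -0.84 to -1.44 for fresh TI and -0.98 to -1.32 for cultured TII. On the dimmest of them the fresh TI and fresh TII arrays overlapped, and its call in culture was lost without cultured TII replicate 2 (adjusted p = 0.056). Fresh TI minus cultured TII was -0.03 ± 0.15 (adjusted p = 0.87), with a 95% interval from -0.36 to 0.30, and its sign turned under quantile normalization (0.15).

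**Figure D2:**
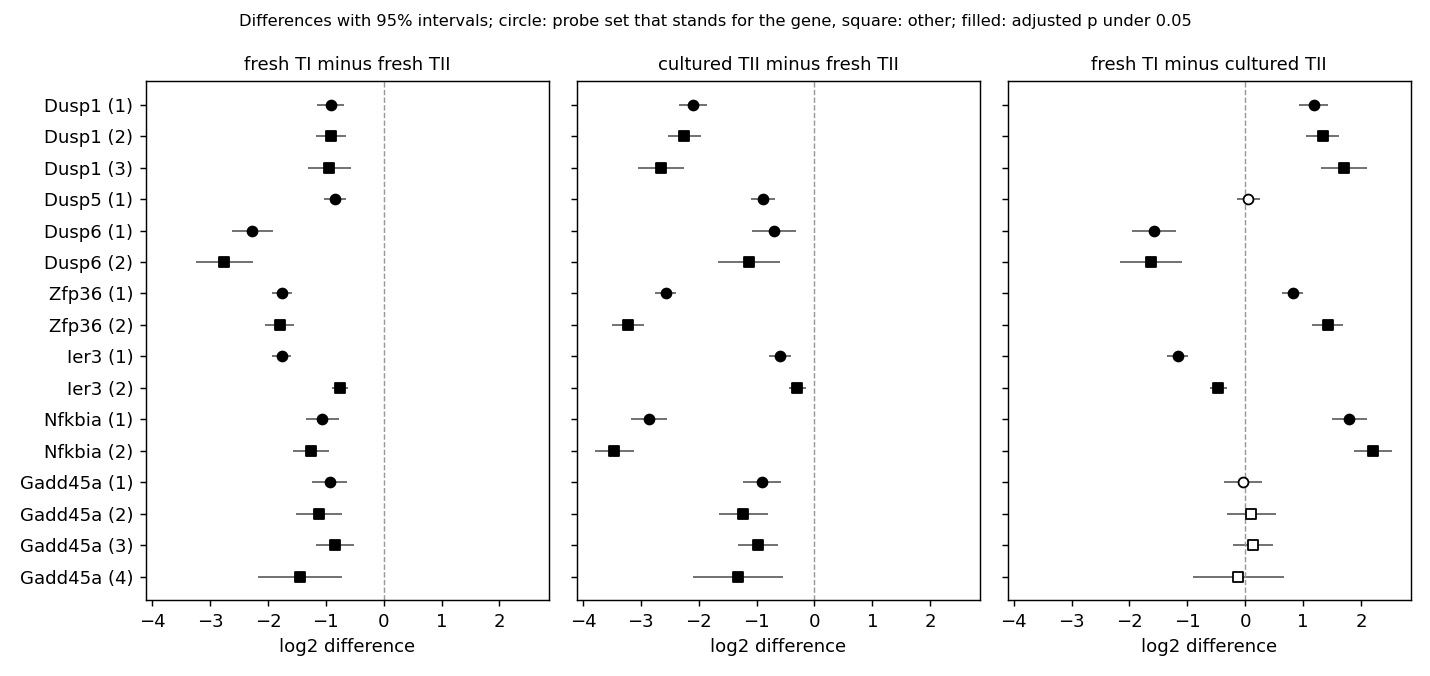
Log2 differences (x axis) of the 16 probe sets of the feedback inhibitors (rows) in the 3 comparisons, with 95% intervals from the limma fit. Every interval lies below 0 in the first 2 panels, while in the third Nfkbia, Dusp1 and Zfp36 lie above 0, Dusp6 and Ier3 below it, and Dusp5 and Gadd45a across it.

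Other features of the arrays also varied, some of them between groups, and their part in these differences was not tested. RNA integrity was read from probe sets for beta-actin, as log2 signal at the 3′ end minus that at the 5′ end, which was 0.21 to 0.43 on fresh TI arrays, -0.33 to -0.08 on cultured TII arrays and 0.32 to 0.43 on fresh TII arrays. The same difference for GAPDH was 0.41 to 0.69 on fresh TI, 0.30 to 0.45 on cultured TII and 0.47 to 0.57 on fresh TII arrays. Cultured and fresh TI arrays overlapped for GAPDH, and fresh TI and fresh TII arrays overlapped for both transcripts. Fresh TI arrays differed in surfactant signal, with a mean log2 signal over Sftpc, Sftpb, Sftpa1 and Sftpd of 9.80, 10.53, 10.58 and 8.92. Replicate 4 had the lowest surfactant signal of these and also the lowest standard deviation over probe sets, 1.77. That standard deviation was 1.77 to 1.85 on fresh TI, 1.95 to 1.97 on cultured TII and 1.92 to 1.95 on fresh TII arrays. On replicate 4, 6 of the 7 feedback inhibitors also had their lowest fresh TI value on the probe sets that stand for them. Zfp36 had its highest there on that probe set (8.63) and its lowest on the other (7.80). The count of 6 was not set beside a share over all genes, so it is not a trait of these genes. In bulk RNA, fewer cells of a type and less RNA per cell cannot be told apart. Time since isolation and culture itself cannot be told apart either.

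Markers of other cells of the lung were set beside these results. For comparison, 21.2% of all genes were called lower and 33.0% higher in fresh TI than in fresh TII cells. For cultured against fresh TII cells these shares were 14.0% and 20.5%. Among 9 leukocyte and macrophage markers, fresh TI cells had 1 lower and 2 higher, and cultured TII cells 0 lower and 3 higher, each against fresh TII. Their mean log2 signal per array was 5.08 to 5.37 in fresh TI, 5.02 to 5.81 in cultured TII and 4.89 to 5.15 in fresh TII cells. In fresh TI minus fresh TII, Coro1a stood at 0.97 ± 0.26, Ptprc at 0.43 ± 0.08 and Cd14 at -0.46 ± 0.15. The 3 markers higher in cultured than in fresh TII cells were Cd53 at 1.93 ± 0.43, Fcgr2b at 1.78 ± 0.38 and Itgam at 0.57 ± 0.13. Of 10 endothelial markers, 1 was lower and 5 higher for fresh TI, and 1 and 1 for cultured TII, with array means of 5.47 to 5.82, 5.63 to 5.65 and 5.52 to 5.65 in fresh TI, cultured TII and fresh TII cells. Of 13 fibroblast and smooth muscle markers, 0 were lower and 6 higher for fresh TI, and 1 and 1 for cultured TII, with array means of 6.07 to 6.39, 5.34 to 5.85 and 5.48 to 5.76 in the same order of groups. In cultured against fresh TII cells, 11 of these 13 were not called, with a median of 0.10 against -0.01 over all genes. The marker higher in culture was Acta2, the actin of smooth muscle, at 0.47 ± 0.11, and its other probe sets gave 2.02 and 1.73. Dcn, the matrix protein decorin, named after its values were seen, was not called in culture on its brightest probe set (0.89, adjusted p = 0.069), while 2 of its other 3 were, at 1.17 and 1.21. Col3a1 and Eln, a collagen and elastin, stood 2.52 ± 0.47 and 1.82 ± 0.20 higher in fresh TI than in fresh TII cells. The part of such cells in the differences of the feedback inhibitors was not tested.

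The transcription factors of the early response, which are induced beside these inhibitors, were described next. Their list, too, was chosen with earlier results of these data known. Of 18 measured, 12 were called lower for fresh TI minus fresh TII, against 21.2% of all genes, and 1 higher, against 33.0%. Their median was -1.54, against 0.11 over all genes. The factor called higher was Egr4, named after its values were seen, at 0.16 (adjusted p = 0.048). Its other probe set was called lower, at -0.22 (adjusted p = 0.0099). In cultured against fresh TII cells, 13 of the 18 were lower, against 14.0% of all genes, and 0 higher, against 20.5%. The median there was -1.57, against -0.01. Egr2, a zinc finger factor, differed by -3.51 ± 0.14 in fresh TI and -3.90 ± 0.16 in cultured TII cells, each against fresh TII. Atf3, a stress-induced leucine zipper factor, differed by -3.45 ± 0.15 and -3.68 ± 0.16, and the nuclear receptor Nr4a1 by -2.66 ± 0.12 and -4.22 ± 0.13. Nr4a3, singled out after its values were seen, did not pass against fresh TII on its brightest probe set (0.16 and -0.15), while another of its probe sets stood at -2.87 and -3.28.

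Between fresh TI and cultured TII cells these factors also fell on both sides. Of the 18, 11 were called higher, against 34.2% of all genes, and 2 lower, against 25.8%. Their median was 0.35, against 0.11 over all genes. Nr4a1 stood at 1.56 ± 0.13, Fos at 1.41 ± 0.11 and Egr1 at 1.25 ± 0.16, on the side of Nfkbia, Dusp1 and Zfp36. Other Egr1 probe sets gave 1.58, 1.44 and 0.22, the last not called (adjusted p = 0.097). Myc, a growth regulator, stood at -1.42 ± 0.10, on the side of Dusp6 and Ier3. Its log2 signal was 5.22 to 5.36 in fresh TI, 6.51 to 6.97 in cultured TII and 7.75 to 7.89 in fresh TII cells. The other factor called lower was Jun, named after its value was seen, at -0.41 ± 0.13, but 1 of its 4 probe sets gave 0.28 and was not called.

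**Figure D3:**
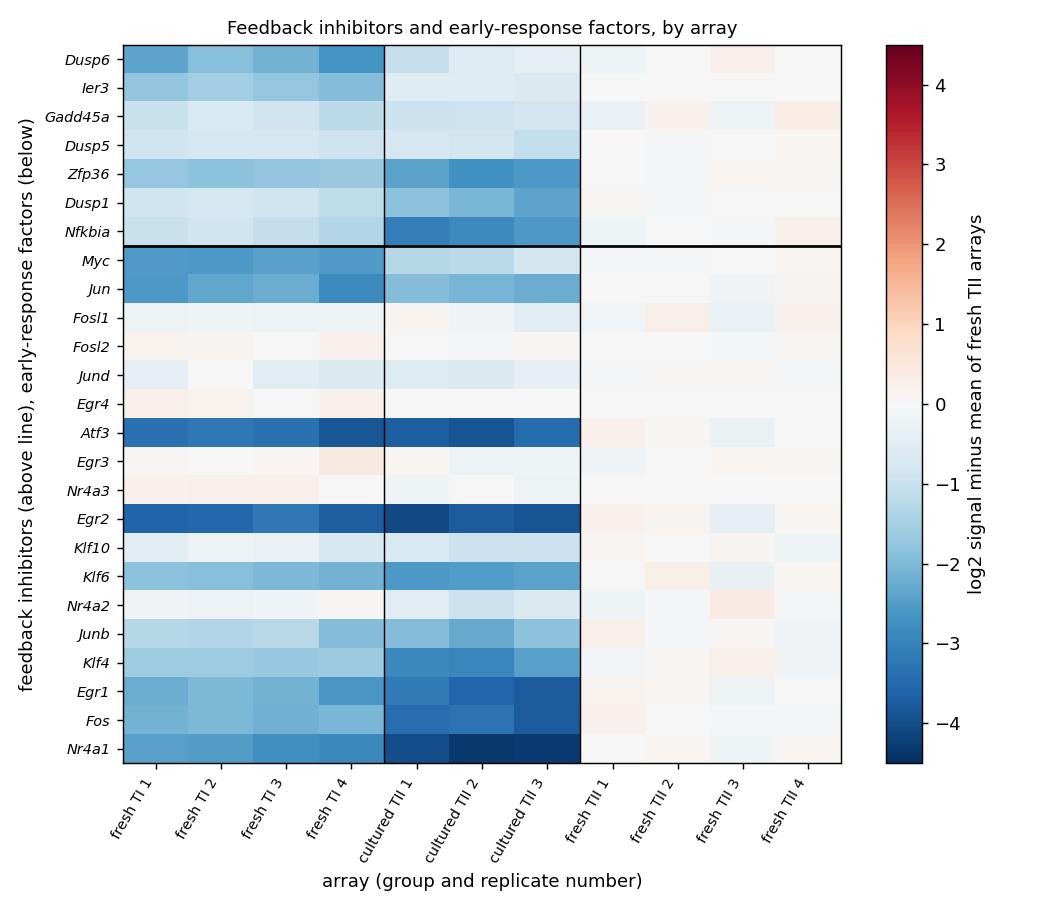
Log2 signal of each gene (rows) on each array (columns) minus the mean of the fresh TII arrays, for the 7 feedback inhibitors above the black line and 18 early-response factors below it, where blue is lower and red higher. Within each block genes are ordered by fresh TI minus cultured TII, from Dusp6 to Nfkbia and from Myc (-1.42) to Nr4a1 (1.56).

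The MAP kinase cascade, whose kinases these phosphatases act on, was represented by 15 genes. Counts for this list and the lists below are to be read against the shares of all genes called. These were 21.2% lower and 33.0% higher for fresh TI minus fresh TII, and 14.0% and 20.5% for cultured minus fresh TII. For fresh TI minus cultured TII they were 25.8% and 34.2%. In fresh TI cells 5 of the 15 were called lower and 1 higher than in fresh TII cells, with a median of -0.02 against 0.11 over all genes. In cultured TII cells 3 were lower and 3 higher than in fresh TII cells, with a median of 0.07. On the probe sets that stand for the genes, 0 of the called genes were 2-fold apart in either comparison. Map3k1, an upstream kinase of the JNK branch, had the greatest difference among those called in fresh TI cells, at -0.80 ± 0.10. Map2k1, an activator of ERK, stood at -0.50 ± 0.11 in fresh TI cells and 0.65 ± 0.12 in cultured TII cells, each against fresh TII. Its other probe sets gave -0.20 and 0.34 for fresh TI, and 0.88 and -0.19 for cultured TII. Against cultured TII, fresh TI cells had 6 of the 15 lower and 2 higher, with Map2k1 at -1.16 ± 0.12 (-1.07 and 0.53 on the others).

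Of 9 other phosphatases and inhibitors of MAP kinase signalling, 2 were called lower and 2 higher for fresh TI, and 1 lower and 4 higher for cultured TII, each against fresh TII. Between fresh TI and cultured TII cells 4 were lower and 2 higher. Spry1, a feedback inhibitor of receptor signalling to ERK, had 7.20 to 7.56 in fresh TI, 7.70 to 7.77 in cultured TII and 8.22 to 8.60 in fresh TII cells (log2 signal). It differed by -0.99 ± 0.10 for fresh TI and -0.64 ± 0.10 for cultured TII, each minus fresh TII, and by -0.35 ± 0.10 for fresh TI minus cultured TII, all called. That is the order of Dusp6 and Ier3. Ppp2cb, a catalytic subunit of phosphatase PP2A, was higher in cultured TII cells by 1.34 ± 0.11.

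Around NF-kappaB, 4 genes besides Nfkbia were measured. Against fresh TII, fresh TI cells had 1 lower and 1 higher, and cultured TII cells 0 lower and 1 higher. Nfkb1, which encodes the p50 subunit, was the gene higher in culture, at 0.35 ± 0.11 (adjusted p = 0.024). Its log2 signal was 7.81 to 7.97 in cultured TII and 7.44 to 7.62 in fresh TII cells. Between fresh TI and cultured TII cells, 2 of the 4 were lower and 1 higher, and Nfkb1 stood at -0.57 ± 0.11.

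Among 4 partners of mRNA decay, 2 were called lower and 0 higher in each comparison with fresh TII. Zfp36l1, a paralogue of Zfp36, differed by -2.41 ± 0.12 for fresh TI and -2.30 ± 0.13 for cultured TII. Btg1, of the antiproliferative family that includes Btg2, differed by -1.75 ± 0.12 and -0.77 ± 0.13. A second probe set of each of these genes gave the same directions against fresh TII. On the probe sets that stand for the genes, Btg1 was the 1 gene of the 4 called between fresh TI and cultured TII cells, at -0.98 ± 0.13. The second probe sets of Zfp36l1 and Btg3 were also called there, at 0.33 (adjusted p = 0.029) and -0.63 (adjusted p = 0.0072), while their first probe sets stood at -0.11 (adjusted p = 0.49) and -0.19 (adjusted p = 0.24). Btg3, another gene of the Btg family, is named after its values were seen.

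The AU-rich transcripts that tristetraprolin is known to bind were divided. Of 7 such cytokine and prostaglandin genes, 1 was called lower and 2 higher for fresh TI, and 4 lower and 1 higher for cultured TII, each against fresh TII. The interleukin Il6 differed by -2.52 ± 0.11 in fresh TI and -1.84 ± 0.12 in cultured TII cells, but by -0.41 and -0.54 on its other probe set. The chemokine Ccl2 was 3.09 ± 0.22 higher in cultured TII cells, and the chemokine Cxcl2 stood at -3.03 ± 0.39 there. A link of these transcripts to the level of Zfp36 was not tested. In fresh TI against cultured TII cells, 2 were lower and 5 higher, with Il1b at 2.84 ± 0.23.

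Gadd45a was set beside 7 genes of the p53 and growth arrest response. In fresh TI cells 3 were lower and 0 higher, and in cultured TII cells 3 lower and 1 higher, each against fresh TII. In fresh TI against cultured TII cells 3 were lower and 1 higher. Mdm2 and Cdkn1a, picked out after their values were seen, were not called against fresh TII on their brightest probe sets. Other Mdm2 probe sets gave -0.33, -0.70 and -1.93 for fresh TI minus fresh TII. For cultured minus fresh TII they gave -0.02, -0.11 and -0.58. The other Cdkn1a probe set was called in both, at -0.375 for fresh TI and 0.47 for cultured TII. Ppp1r15a, a stress-induced phosphatase regulator, had 7.99 to 8.15 in fresh TI, 7.15 to 7.30 in cultured TII and 9.68 to 10.18 in fresh TII cells (log2 signal), which is the order of Nfkbia, Dusp1 and Zfp36. Cyclin G1 (Ccng1), a p53 target, went the other way in culture, at 2.33 ± 0.11, with 8.43 to 8.83 in cultured TII cells, against 6.09 to 6.37 in fresh TII cells.

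**Figure D4:**
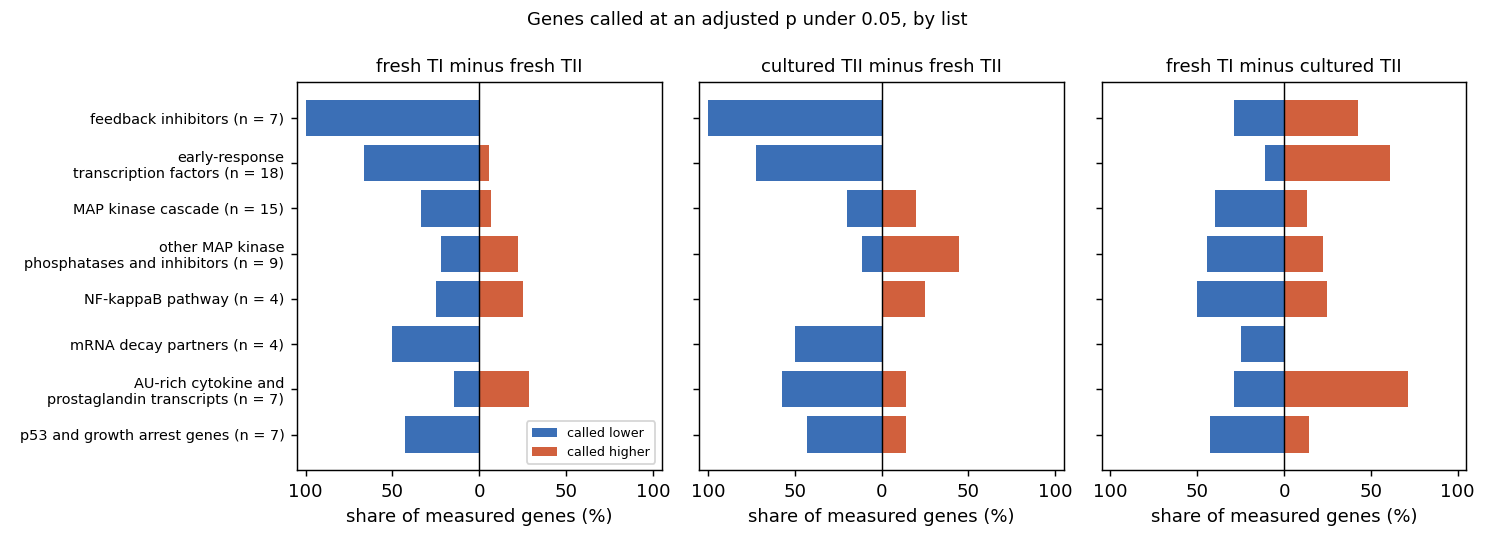
Share of measured genes (x axis, percent) called lower (bars to the left) and higher (bars to the right) in each of the 3 comparisons, for the 7 feedback inhibitors and 7 lists of related genes (rows, with the number measured). All 7 feedback inhibitors are on the lower side in the first 2 panels, followed by the early-response factors with 12 and 13 of 18, while the third panel is divided.

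Over the 11 arrays, the genes whose profile was most like each member differed between the members. Pearson r over 11 arrays of 3 groups mostly records the order of the groups, and it is given as a description. The gene most like Dusp1 was Sftpd (r = 0.992), the one most like Zfp36 was Alpl (0.992) followed by Nr4a1 (0.991), and the one most like Nfkbia was Gas6 (0.986). Dusp5 was most like Cldn3 (0.992) and Muc1 (0.985). Dusp6 was most like Ass1 (0.986) and Pcna (0.985), and Ier3 was most like H2ax (0.989). Gadd45a was most like Runx1 (0.963), followed by the heat shock genes Dnajb1 (0.955) and Hspa1a (0.951). Among the members, Dusp6 and Ier3 had r = 0.982 and Dusp1 and Nfkbia 0.964, whereas Dusp6 and Nfkbia had 0.23.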

How the data were processed

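Expression was measured on 11 Affymetrix rat arrays, 4 of fresh TI, 3 of cultured TII and 4 of fresh TII cells, grouped by the sample descriptions because the source field gives the same cell for all. The authors deposited 1 log2 value per probe set and array. That the scale is log2 was read from the values (1.37 to 13.16), and the labels name no method of summary or normalization. The deposited values were used unaltered. Of 8799 probe sets, 59 controls were set apart. The probe annotation gave 1 gene for 7006 of the 8740 tested, several for 308 and none for 1426, and 4736 genes resulted.

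A model with 3 group means was fitted in limma 3.58.1 (R 4.3.3), two-sided. Calls used an adjusted p under 0.05, and probe sets were not filtered on brightness. The labels name cDNA synthesis and biotin labelling kits. The members and the 12 gene lists were chosen with earlier results of these data known. From each list at most 4 called genes with the greatest absolute difference in a comparison could be named, and for each member the 3 most alike genes. Precision is limited by 3 or 4 arrays a group. Alternatives were quantile normalization, scaling of the arrays, a filter on dim probe sets, other variance models, 2-group fits, array weights, a replicate block, a stricter threshold, gene means and leaving out each array. The labels do not say whether arrays with the same replicate number belong together, and the main model did not pair them. Deviations from group means correlated between -0.20 and 0.28 in 10 same-numbered pairs, and between -0.27 and 0.23 in 30 others. These ranges overlap, and with 3 or 4 arrays a group they cannot settle whether the arrays are paired.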

Additional observations from a re-analysis of the deposited data

Results flagged for a closer look

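Within groups of 4 arrays, 2 values of the feedback inhibitors stood far from the other 3. On 1 of the 3 Dusp1 probe sets, fresh TI replicate 4 read 8.27, against 8.68 to 8.76 on the other fresh TI arrays. On 1 of the 4 Gadd45a probe sets, fresh TI replicate 1 read 5.67, against 5.98 to 6.01 on the others. In all 32 groups were looked at, and chance alone marks about 5% of them.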

How the results depend on the processing

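The counts of feedback inhibitors called, 7 lower for fresh TI and 7 lower for cultured TII against fresh TII, and 2 lower and 3 higher for fresh TI minus cultured TII, were the same under all 20 alternatives, 11 of which left out 1 array. With a replicate block the counts were 7, 7, 2 and 3 as well, and over all probe sets 1805 were lower and 2982 higher for fresh TI minus fresh TII, against 1787 and 2996 without it. Sizes moved more: over the alternatives Dusp1 ran from -0.97 to -0.61 and Nfkbia from -1.13 to -0.78 for fresh TI minus fresh TII. Differences of fresh TI minus cultured TII that were not called changed sign in places. Dusp5 ran from -0.0575 to 0.13 when single arrays were left out. For Gadd45a the brightest probe set gave 0.15 after quantile normalization, 0.069 with the arrays scaled and 0.040 with array weights, and -0.11 to 0.048 without single arrays. Its second probe set ran from -0.032 to 0.23 and its dimmest from -0.37 to 0.096 without single arrays, and the dimmest gave 0.28 with array weights. For cultured minus fresh TII, the dimmest lost its call at the threshold of 0.01 (adjusted p = 0.012) and without cultured TII replicate 2 (adjusted p = 0.056). Scaling the arrays to 1 standard deviation moved the median of all probe sets for fresh TI minus cultured TII to 0.02, against 0.13 as deposited, so small positive differences of fresh TI cells are to be read against that shift. That scaling put 49.7% of its calls on the higher side, against 59.7%. Leaving out dim probe sets, which removes tests, left 1334 lower and 1337 higher for fresh TI minus fresh TII and 1618 lower and 1375 higher, against 2111 and 3124, for fresh TI minus cultured TII. With 3 or 4 arrays a group and no depth or background given, the smallest differences were not resolved.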
